A study of Homo sapiens with 16 samples.

Results

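The 35 genes described here encode the transporters and enzymes that carry glucose through glycolysis to lactate, the regulators that set the pace of that route, and the pentose phosphate enzymes that branch from it. They were taken by name from a list, and all 35 were among the 17738 genes of the deposited table. All 35 also passed the filter on low values that left 16714 genes to test. By role the list holds 2 glucose transporters, 9 genes of upper glycolysis, 3 enzymes that make or remove fructose 2,6-bisphosphate, 6 genes of lower glycolysis, 4 of lactate formation and transport, 3 pyruvate dehydrogenase kinases, 2 phosphoglucomutases and 6 pentose phosphate enzymes. The pyruvate dehydrogenase kinases and the phosphoglucomutases border on glycolysis rather than belonging to it.

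RNA was sequenced from H1 cells, a long-established line of human embryonic stem cells, of wild-type genotype. All groups were kept for 24 h in E7, the chemically defined stem cell medium E8 from which TGFb had been omitted. The media were E7 with TGFb at 1.74 ng/mL, E7 with Activin A at 100 ng/mL, E7 with NODAL at 100 ng/mL, and E7 with none of these, each with 2-deoxyglucose (2DG) at 3 mM and without it. This made 8 groups of 2 libraries, and each value below is a read count divided by the size factor of its library, called a normalised read. H1 is a single line, and whether the 2 libraries of a group came from separate cultures is not stated, so p-values measure only the spread between these libraries.

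Glycolysis splits glucose into pyruvate and yields ATP and NADH, and cells that rely on it reduce pyruvate to lactate and export it. 2DG enters through glucose transporters and is phosphorylated by hexokinase, but the product cannot be carried further and accumulates, slowing the early steps. Human pluripotent stem cells in the primed state are known for high glycolytic flux, and the pentose phosphate route supplies them with NADPH and ribose for nucleotides. TGFb, Activin A and NODAL signal through SMAD2 and SMAD3 and help to hold this state.

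The promoters of 4 members are shown because these had the largest changes with 2DG averaged over the 4 media, downward in SLC16A3 and LDHA and upward in SLC2A1 and ENO2. Each is the 250 bases before the RefSeq gene start in GRCh38.p14, written 5′ to 3′ on the strand of the gene, with capitals marking ACGTG or GCGTG on either strand, the cores of the hypoxia response element. The windows are chr17:82228185-82228434 on the plus strand for SLC16A3, chr11:18394313-18394562 on the plus strand for LDHA, chr1:42958869-42959118 on the minus strand for SLC2A1 and chr12:6914330-6914579 on the plus strand for ENO2. By the GENCODE 29 annotation the whole windows of SLC2A1 and ENO2 and the downstream ends of those of LDHA and SLC16A3 lie inside the gene, because its gene starts differ from those of RefSeq.
SLC16A3: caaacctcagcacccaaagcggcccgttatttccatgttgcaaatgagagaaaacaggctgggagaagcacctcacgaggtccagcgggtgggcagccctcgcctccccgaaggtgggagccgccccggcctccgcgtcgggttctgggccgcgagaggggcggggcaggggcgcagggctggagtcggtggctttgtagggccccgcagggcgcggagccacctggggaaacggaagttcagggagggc
LDHA: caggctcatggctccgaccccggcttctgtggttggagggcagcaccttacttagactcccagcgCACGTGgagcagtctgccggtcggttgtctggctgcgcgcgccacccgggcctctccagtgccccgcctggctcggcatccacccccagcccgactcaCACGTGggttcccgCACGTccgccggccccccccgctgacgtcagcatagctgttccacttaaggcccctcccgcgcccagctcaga
SLC2A1: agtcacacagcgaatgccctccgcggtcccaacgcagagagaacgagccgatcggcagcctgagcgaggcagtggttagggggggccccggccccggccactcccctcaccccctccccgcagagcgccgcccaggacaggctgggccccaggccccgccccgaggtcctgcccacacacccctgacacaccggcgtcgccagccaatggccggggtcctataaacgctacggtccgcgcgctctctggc
ENO2: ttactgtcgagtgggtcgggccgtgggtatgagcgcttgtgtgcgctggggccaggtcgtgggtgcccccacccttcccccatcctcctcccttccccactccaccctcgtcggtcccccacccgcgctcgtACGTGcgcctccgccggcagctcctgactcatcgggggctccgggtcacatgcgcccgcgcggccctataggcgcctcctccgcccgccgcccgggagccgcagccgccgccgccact

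The window of LDHA held 5 matches to ACGTG counting both strands, of which 4 come from 2 copies of the palindrome CACGTG, the E-box. ENO2 held 1 match, and SLC16A3 and SLC2A1 held none. RefSeq promoters were matched for 32 of the 35 genes, and 34.4% of these held ACGTG, against 18.5% of 35116 promoter windows of the same length. The E-box CACGTG, which contains ACGTG, was in 12.5% of the members' windows and 6.34% of all windows, and the related core GCGTG in 34.4% and 32.2%. Other motifs counted were the GC box GGGCGG, in 71.9% of the members' windows and 42.6% of all, and the SMAD box CAGACA, in 9.4% and 13.6%. TATAAA was in 9.4% and 10.7%, and the amino acid response element TGATGNAAN in 3.1% and 3.1%. These are matches of letters in a short window and say nothing of which factor binds.

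Recovered reads per library ranged from 14600479 to 17630329, and the 35 genes together took 1.19 to 1.46% of them. All 8 pluripotent stem cell markers of the list used were present, with a summed level of 117464 to 144903 normalised reads, while 3 of 5 definitive endoderm markers and 4 of 8 fibroblast markers were not in the table used here. Replicates stood furthest apart in E7+ActivinA, where their difference was 50.3 times the counting variance, against 1.55 to 13.9 times in the 7 other groups. In that group replicate 1 read higher than replicate 2 for several abundant members, such as TPI1 with 14503 and 9325 normalised reads and LDHB with 30466 and 21397. Because the model shares 1 error over all groups, these libraries widen the error of every comparison, so counts without them are given where they differ. Levels are bulk averages, in which fewer expressing cells and less RNA per cell cannot be told apart.

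Levels between genes were compared as normalised reads per kb of the principal transcript. Without any addition to E7, LDHB, a lactate dehydrogenase subunit, stood highest with 20955 and 23703 per kb in its 2 libraries. GAPDH, which makes 1,3-bisphosphoglycerate, followed with 20353 and 19774, and the order of these first genes is not settled by their spread, since it turns round when all exons are used for the length. ENO1, the main enolase, and TPI1, which interconverts the triose phosphates, came next at 12392 ± 509 and 11209 ± 1314 per kb (SD, n = 2 each) and did not differ beyond their spread. The lowest were the kinase PDK2 at 16.9 ± 1.51, the lactate transporter SLC16A3 at 20.4 ± 1.42 and the bifunctional enzyme PFKFB4 at 38.4 ± 2.3 per kb. With 2DG in E7, GAPDH was first at 19009 ± 920 per kb, and LDHB second at 13846 ± 290.

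**Figure D1:**
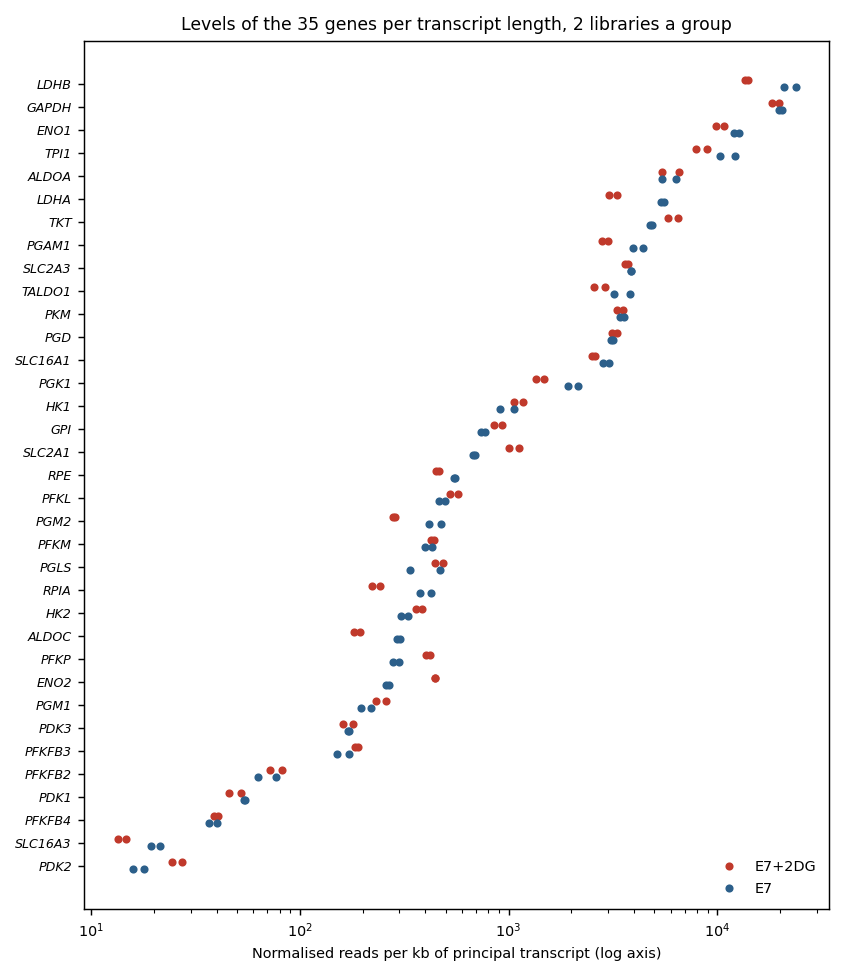
Levels of the 35 genes in E7+2DG (red) and E7 (blue), as normalised reads per kb of the principal transcript on a log axis, with 1 point per library and genes ordered by their mean in E7. LDHB, GAPDH, ENO1 and TPI1 lie at the top and PFKFB4, SLC16A3 and PDK2 at the bottom in both groups.

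What 2DG does to these genes was first asked over all media, as the mean of the 4 responses to 2DG. Of the 35 genes, 6 rose and 10 fell, and the 16 called genes are 45.7% of the members, beside 38.6% of all 16714 genes tested (19.2% higher and 19.4% lower). The median log2 fold change of the members was -0.01, and that of all genes was -0.00, so the list did not move one way. Within it, the RNA of the glucose transporter gene SLC2A1, the neuronal enolase ENO2 and transketolase TKT was higher with 2DG, while the lactate genes SLC16A3 and LDHA, the aldolase ALDOC and the ribose isomerase RPIA had less. In each of the 4 media both 2DG libraries lay above both libraries without it for SLC2A1, ENO2 and TKT, and below for ALDOC, SLC16A3 and RPIA. Such separation in all media was seen in 11.6% of all genes, upward in 6.47% and downward in 5.16%. The calls of 13 of the 16 genes held in every fit that left out 1 library and in every other setting tried. The exceptions were GPI, PGM1 and RPE.

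**Figure D2:**
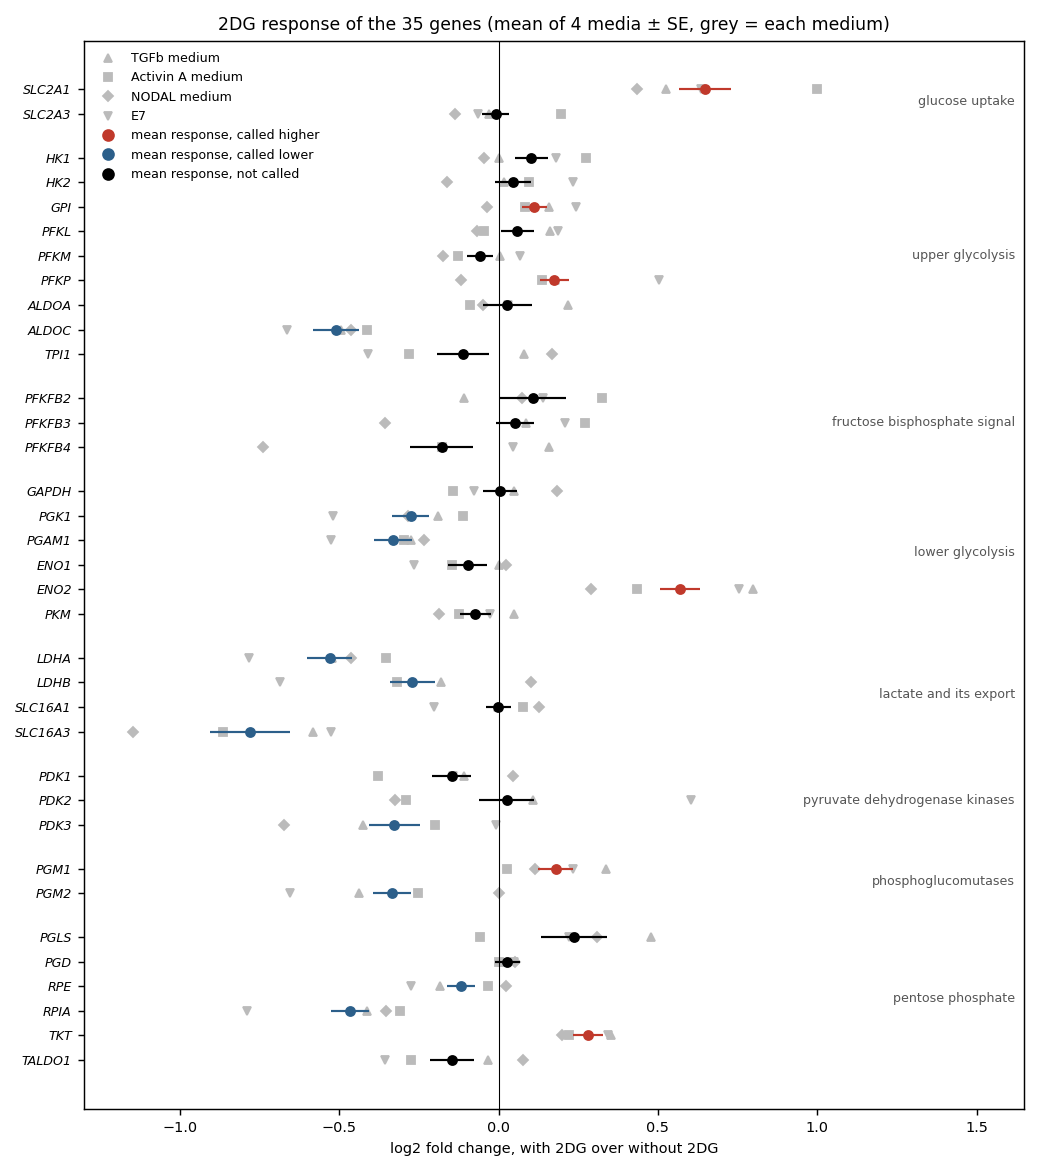
Log2 fold change with 2DG over without 2DG for each gene, grouped by role. Round points with bars are the mean over the 4 media ± SE, red where called higher, blue where called lower and black where not called, and grey symbols are the response in each medium. SLC2A1 and ENO2 lie furthest right, and SLC16A3, LDHA, ALDOC and RPIA furthest left.

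The RNA of 2 glucose transporters was counted, that of SLC2A1, which encodes the ubiquitous transporter GLUT1 (chr1:42925375-42959176, minus strand, GRCh38), and that of SLC2A3, which encodes the high-affinity transporter GLUT3. SLC2A1 had 2971, 3697 and 4754 normalised reads (lowest, median and highest of 8 libraries) with 2DG, against 1748, 2504 and 2813 without it. All 8 libraries with 2DG lay above all 8 without, which held for 2 members, the other being ALDOC in the opposite direction, and for 3.37% of all genes, 2.03% upward and 1.34% downward. The log2 fold change was 0.65 (SE 0.08, adjusted p = 6.2e-05). SLC2A3 had a log2 fold change of -0.01 (95% interval -0.10 to 0.08), and its libraries overlapped.

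Among the hexokinases, which trap glucose and 2DG in the cell as phosphates, HK1 had a log2 fold change of 0.10 (-0.01 to 0.21) and HK2 of 0.05 (-0.08 to 0.17), and neither was called. GPI, which turns glucose 6-phosphate into fructose 6-phosphate, was called higher at 0.11 (adjusted p = 0.039), with 3335, 3499 and 3916 normalised reads with 2DG and 3078, 3295 and 3434 without. That call was lost without 11 of the 16 libraries taken one at a time (adjusted p 0.055 to 0.098), namely replicate 2 of E7+2DG, E7 and E7+ActivinA+2DG and every library of the TGFb and NODAL media. With a trend on transcript length removed the value was 0.01. Of the phosphofructokinases, which commit sugar to glycolysis, the platelet form PFKP was higher at 0.17 (SE 0.05, adjusted p = 0.0095). The liver form PFKL and the muscle form PFKM had 0.06 (-0.05 to 0.17) and -0.06 (-0.14 to 0.03).

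ALDOC, the brain-type aldolase (chr17:28573115-28577264, minus strand), had 341, 386 and 465 normalised reads with 2DG, against 484, 580 and 601 without it. Its lowest library without 2DG exceeded its highest with 2DG, and the log2 fold change was -0.51 (SE 0.07, adjusted p = 0.00014). The more abundant aldolase ALDOA had a log2 fold change of 0.03 (-0.14 to 0.19). For ALDOA, 53.5% of the exon bases are shared with other annotated genes, 1 of them antisense, and since the strand setting is not given its value is uncertain. TPI1 was not called in this mean. Its 2DG libraries lay below those without in E7, above in the TGFb and NODAL media, and overlapped in the Activin A medium. With the Activin A libraries left out of the limma fit, TPI1 was called in E7 at -0.41 (adjusted p = 0.00033). The enzymes PFKFB2, PFKFB3 and PFKFB4, which set the level of the phosphofructokinase activator fructose 2,6-bisphosphate, had averaged values of 0.11, 0.05 and -0.18, none of them called.

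In lower glycolysis PGK1, the first ATP-forming kinase, fell by a log2 value of 0.28 (adjusted p = 0.0021), and PGAM1, the phosphoglycerate mutase, by 0.33 (adjusted p = 0.00077). PGAM1 had 5111, 5502 and 6664 normalised reads with 2DG, against 6479, 6898 and 8208 without. The ranges overlapped only through the Activin A medium. ENO2 (chr12:6913745-6923698, plus strand) moved the other way, with 699, 1254 and 1311 normalised reads with 2DG and 557, 744 and 1106 without, a log2 fold change equal to 0.57 (SE 0.06, adjusted p = 1.8e-05). The major enolase ENO1 had -0.10 (-0.23 to 0.03), GAPDH 0.00 (-0.11 to 0.12) and PKM, which encodes a pyruvate kinase, -0.07 (-0.18 to 0.03). GAPDH thus stayed within a narrow interval around 0 in this mean, though 62 annotated pseudogenes bear its name and reads can be shared with them. By medium, its 2DG libraries lay below those without in E7, above in the TGFb and NODAL media, and overlapped in the Activin A medium.

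**Figure D3:**
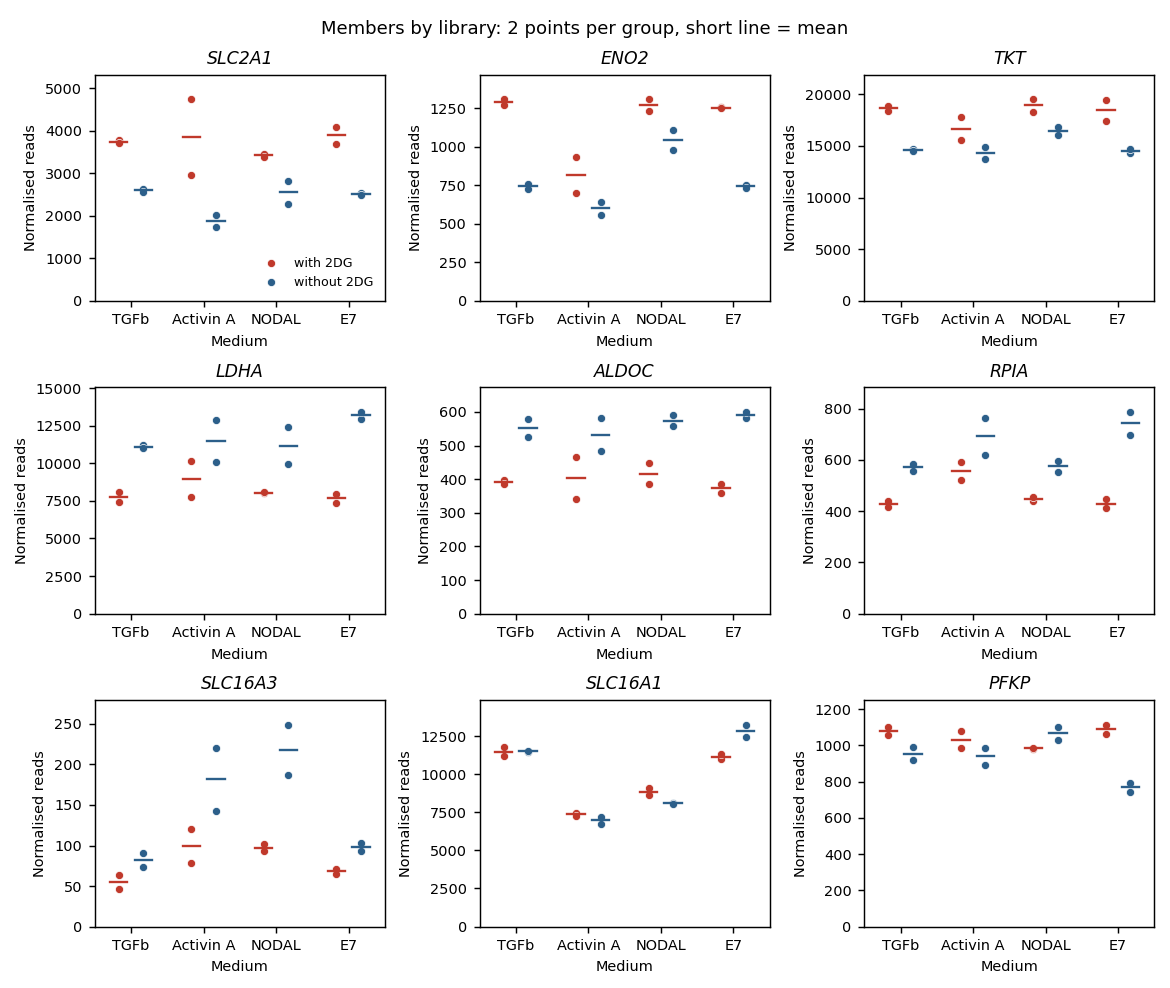
Normalised reads of 9 members by medium, with 2DG (red) and without it (blue), 1 point per library and a short line at the mean of 2. SLC2A1, ENO2 and TKT are higher with 2DG in every medium, and ALDOC, RPIA and SLC16A3 lower in every medium, whereas SLC16A1 separates the media more than 2DG does.

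Of the 4 genes of lactate formation and transport, 3 fell and none rose, beside 19.4% of all genes lower and 19.2% higher. SLC16A3, which encodes the lactate exporter MCT4 (chr17:82228397-82261129, plus strand), had 46.8, 74.8 and 120 normalised reads with 2DG, against 74.0, 123 and 249 without it. It had the largest averaged fall of the 35, a log2 fold change equal to -0.78 (SE 0.13, adjusted p = 0.00037), from low counts. LDHA, the subunit that favours making lactate (chr11:18394388-18408425, plus strand), had 7352, 8008 and 10179 normalised reads with 2DG and 9959, 11804 and 13437 without. The log2 fold change was -0.53 (SE 0.07, adjusted p = 7.8e-05), and the ranges touched only through replicate 1 of E7+ActivinA+2DG. LDHB fell by 0.27 (adjusted p = 0.0086), and 33.4% of its exon bases are shared with another annotated gene on the same strand. SLC16A1, which encodes MCT1, a transporter for lactate and pyruvate, had -0.00 (-0.09 to 0.08). This mean joins opposite directions. Its 2DG libraries lay below those without in E7, above in the Activin A and NODAL media, and overlapped in the TGFb medium. The main limma fit did not call SLC16A1 in E7, but DESeq2 called it lower there at -0.20 (adjusted p = 0.042). So did limma without the Activin A libraries (adjusted p = 0.0085), with library weights (0.036) and with the length trend removed (0.026).

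The pyruvate dehydrogenase kinases hold pyruvate back from the mitochondrial pyruvate dehydrogenase complex. PDK3 fell by 0.33 (adjusted p = 0.0056), PDK1 had -0.15 (-0.28 to -0.02, adjusted p = 0.07), and PDK2 had 0.02 (-0.16 to 0.21). With the length trend removed PDK1 was called lower at -0.29 (adjusted p = 0.0053). The phosphoglucomutases, which link glycolysis to glycogen and sugar nucleotides, were called in opposite directions. PGM1 was higher at 0.18 (adjusted p = 0.021) and PGM2, which also handles pentose phosphates, fell by 0.34 (adjusted p = 0.00071). The PGM1 call was lost without replicate 2 of E7+2DG (0.055), replicate 1 of E7 (0.051), replicate 1 of E7+NODAL+2DG (0.059) or replicate 2 of E7+NODAL (0.062), which are adjusted p-values.

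In the pentose phosphate route 1 gene rose, 2 fell and 3 were not called, beside 19.2% of all genes higher and 19.4% lower. TKT, the transketolase that moves carbon between pentoses and glycolytic sugars (chr3:53224707-53256052, minus strand), had 15547, 18346 and 19558 normalised reads with 2DG, against 13691, 14677 and 16872 without. The log2 fold change was 0.28 (SE 0.05, adjusted p = 0.00045). RPIA, which interconverts ribose and ribulose phosphates (chr2:88691644-88750935, plus strand), had 411, 444 and 592 normalised reads with 2DG and 554, 608 and 789 without, a log2 fold change equal to -0.47 (SE 0.06, adjusted p = 6.1e-05). Its libraries overlapped across media but not within any medium. RPE, the epimerase beside it in the route, was lower at -0.12 (adjusted p = 0.0496). The RPE call was lost without 14 of the 16 libraries taken singly (adjusted p 0.060 to 0.103), all but replicate 1 of the 2 Activin A groups, and 23.8% of its exon bases overlap the antisense gene KANSL1L. The lactonase PGLS had 0.24 (0.01 to 0.46, adjusted p = 0.085), the oxidative enzyme PGD 0.03 (-0.06 to 0.11) and the transaldolase TALDO1 -0.15 (-0.30 to 0.00). With the length trend removed PGLS was called higher at 0.29 (adjusted p = 0.0087).

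Taken within single media, the comparisons use the same libraries and have fewer of them, so their counts are not additional evidence. With 2DG in the TGFb medium 2 members rose and 4 fell, where 9.84% of all genes were called, 5.47% higher and 4.37% lower. In the Activin A medium 1 member rose, beside 1.70% of all genes called, of which 1.48% higher and 0.221% lower. In the NODAL medium 3 fell, beside 5.88%, of which 3.11% higher and 2.76% lower, and in E7 6 rose and 8 fell, beside 29.4%, of which 14.6% higher and 14.8% lower. In E7 fewer members were called without either replicate of E7+2DG or of E7, and more without either of E7+ActivinA. In the TGFb medium fewer were called without any 1 of its own 4 libraries, or either replicate of E7+NODAL+2DG, E7+2DG or E7+NODAL. More were called there without either replicate of E7+ActivinA. In the Activin A medium the 1 call was lost without replicate 2 of E7+ActivinA+2DG. More members were called there without replicate 1 of that group or replicate 2 of E7+ActivinA. In the NODAL medium the 3 calls were lost without any 1 of its own 4 libraries. More members were called there without any 1 of the 4 Activin A libraries. In each of these fits the share of all genes called moved in the same direction as the count of members. With the 4 Activin A libraries left out altogether, 13 members were called in the TGFb medium, 13 in the NODAL medium and 21 in E7. In those fits 24.6%, 20.3% and 45.4% of all genes were called in these media.

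In E7 the falls were led by RPIA, with 411 and 447 normalised reads with 2DG and 698 and 789 without, a log2 fold change equal to -0.79 (SE 0.12, adjusted p = 0.00076). LDHA had 7352 and 7988 normalised reads with 2DG, against 12927 and 13437 without it, and fell by 0.78 (adjusted p = 0.0018). LDHB fell by 0.69, ALDOC by 0.67, PGM2 by 0.65, PGAM1 by 0.53, PGK1 by 0.52 and RPE by 0.28. ENO2 had 1256 and 1252 normalised reads with 2DG and 753 and 735 without, and rose by 0.75 (SE 0.12, adjusted p = 0.0012). SLC2A1 rose by 0.63, PDK2 by 0.60, PFKP by 0.50, TKT by 0.34 and GPI by 0.24. PDK2 shares 38.6% of its exon bases with the antisense gene SAMD14, so its value is uncertain. Spearman's rho between log2 fold change and exon length over all genes was 0.31 in this comparison. Long genes thus read higher with 2DG in E7. For 2DG in the other media rho was 0.01 with TGFb, 0.32 with Activin A and -0.11 with NODAL. Against the same E7 libraries, and without 2DG, rho was 0.42 for TGFb, 0.13 for Activin A and 0.22 for NODAL. With the length trend removed GPI had -0.042 (adjusted p = 0.83), and TKT 0.11 (adjusted p = 0.54). The RPE value became -0.17 (adjusted p = 0.20). That fit newly called PDK1 at -0.56 (adjusted p = 0.010), SLC16A1 at -0.24 (0.026), PGM1 at 0.28 (0.043) and PGD at 0.19 (0.045). In it 15 members were called, beside 32.7% of all genes.

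The calls of ENO2, PFKP, ALDOC, LDHA, PGM2 and RPIA in E7 held without any single library. Without replicate 2 of E7 the adjusted p was 0.080 for SLC2A1, 0.068 for PGK1, 0.075 for PGAM1, 0.052 for LDHB, 0.058 for PDK2, 0.074 for TKT, 0.21 for GPI and 0.16 for RPE. Without replicate 1 of E7+2DG it was 0.056 for PGK1, 0.056 for PGAM1, 0.053 for PDK2, 0.052 for GPI and 0.15 for RPE. Without replicate 2 of E7+2DG it was 0.084 for SLC2A1, 0.10 for PDK2, 0.12 for TKT, 0.22 for GPI and 0.084 for RPE. Without replicate 1 of E7 it was 0.091 for PDK2, 0.061 for TKT, 0.059 for GPI and 0.080 for RPE. The call of GPI was also lost without any of the 8 libraries of the TGFb and NODAL media (0.053 to 0.055), and that of RPE without either replicate of E7+TGFb (0.050 each).

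In the TGFb medium ENO2 rose by 0.80 (adjusted p = 0.0017), with 1311 and 1271 normalised reads with 2DG and 759 and 725 without. That call held without any single library. With the length trend removed SLC2A1 (0.52, adjusted p = 0.037), PGAM1 (-0.29, 0.020) and PGM1 (0.33, 0.039) were newly called there. TKT rose by 0.35 (0.36 with the length trend removed, adjusted p = 0.074), LDHA fell by 0.52, ALDOC by 0.50, PGM2 by 0.44 and RPIA by 0.41. Each of these 5 calls was lost without any of the 4 libraries of the TGFb medium (adjusted p 0.084 to 0.27). LDHA was also lost without either replicate of E7+NODAL+2DG (0.052 each), PGM2 without any library of the NODAL medium or E7+2DG (0.051 to 0.054), ALDOC without any library of E7+2DG, E7 or the NODAL medium (0.059 to 0.067), and RPIA without any of E7+2DG or the NODAL medium (0.057 to 0.066).

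In the NODAL medium SLC16A3 had 92.6 and 102 normalised reads with 2DG, against 249 and 188 without it, and fell by 1.15 (SE 0.25, adjusted p = 0.019). PFKFB4 had 153 and 131 with 2DG and 277 and 203 without, a log2 fold change of -0.74 (adjusted p = 0.041), and PDK3 had 226 and 213 with 2DG and 354 and 347 without, a change of -0.67 (adjusted p = 0.026). All 3 calls were lost without any of the 4 libraries of the NODAL medium (0.062 to 0.31), and PFKFB4 also without any library of E7+2DG, E7 or E7+TGFb (0.054 to 0.0605). In the Activin A medium only SLC2A1 was called, with 2971 and 4754 normalised reads with 2DG and 2022 and 1748 without, a log2 fold change equal to 1.00 (SE 0.17, adjusted p = 0.011). Without replicate 2 of E7+ActivinA+2DG it was 0.66 (adjusted p = 0.07), and with only the 4 libraries of that medium in the fit the adjusted p was 0.62.

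The ligands without 2DG were each compared with the same E7 libraries, which also serve the comparison of 2DG in E7, so their values are given side by side and share that error. TGFb called no member and none of all 16714 genes in limma. At an unadjusted p under 0.05 there were 5 members (14.3%) and 3771 genes (22.6%). Adjusted calls were 0 members and 0 genes in edgeR, and 0 members and 213 genes (1.27%) in DESeq2. Without either replicate of E7+ActivinA 7 members were called, and 14 without all 4 Activin A libraries, with PFKP at 0.31, PDK3 at 0.37, HK2 at 0.26 and HK1 at 0.22 higher and 10 others, among them LDHB at -0.44 and RPIA at -0.38, lower. All genes were called at 20.0% and 26.2% in those fits. Activin A raised 3 members and lowered 5, beside 10% of all genes called (1675 of 16714), 5.28% higher and 4.74% lower. NODAL raised 8 and lowered 6, beside 21.5%, 10.6% higher and 10.9% lower. For NODAL the count of 14 became 20 without the Activin A libraries, beside 38.8% of all genes. The medians were -0.11 for the members and -0.01 for all genes with Activin A, and 0.02 and 0.01 with NODAL.

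**Figure D4:**
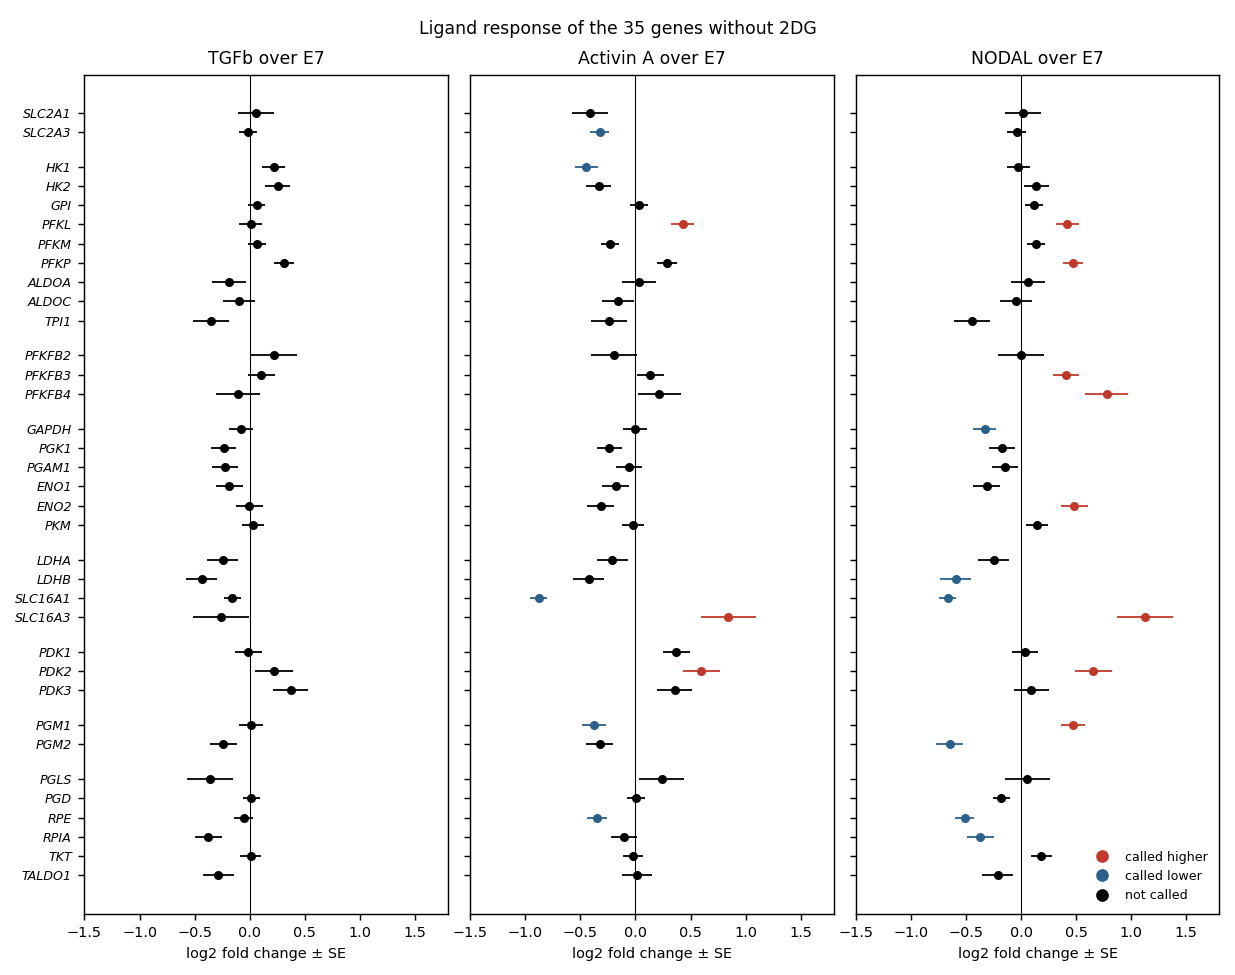
Log2 fold change ± SE of the 35 genes with TGFb, Activin A or NODAL over E7, all without 2DG, with called genes red (higher) or blue (lower). SLC16A1 is lower and SLC16A3 and PDK2 higher with both Activin A and NODAL, and with TGFb no gene is called.

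The 2 monocarboxylate transporters moved apart. SLC16A1 (chr1:112911847-112957013, minus strand) had 11481 and 11533 normalised reads with TGFb, 7215 and 6761 with Activin A, 8140 and 8044 with NODAL, and 12444 and 13260 in E7. Activin A lowered it by 0.88 (SE 0.08, adjusted p = 1.2e-05) and NODAL by 0.67 (SE 0.08, adjusted p = 0.00036), and both calls held without any single library. With TGFb it had -0.16 (-0.33 to 0.01). SLC16A3 had 91.3 and 74.0 with TGFb, 220 and 143 with Activin A, 249 and 188 with NODAL, and 93.8 and 104 in E7. It rose by 0.84 with Activin A (SE 0.25, adjusted p = 0.0499) and by 1.13 with NODAL (SE 0.25, adjusted p = 0.0083). The rise with Activin A was lost without 13 of the 16 libraries taken singly, all but E7+ActivinA+2DG and replicate 2 of E7+ActivinA (adjusted p 0.057 to 0.18), and was 0.53 without replicate 1 of E7+ActivinA. The rise with NODAL was lost without replicate 2 of E7 (adjusted p = 0.0504) or replicate 1 of E7+NODAL (0.079).

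With NODAL, 2 of the 3 phosphofructokinase genes and 2 of the 3 PFKFB genes rose and none of these 6 fell. Of all genes 10.6% were called higher and 10.9% lower. PFKP had 1102 and 1030 normalised reads with NODAL and 792 and 745 in E7 (log2 0.47, adjusted p = 0.0043), and PFKL rose by 0.42 (adjusted p = 0.013). PFKFB4, with 277 and 203 normalised reads against 144 and 132 in E7, rose by 0.78 (adjusted p = 0.014), and PFKFB3 by 0.41 (adjusted p = 0.028). PFKM had 0.14 (-0.04 to 0.31) and PFKFB2 -0.00 (-0.44 to 0.44), and neither was called. With the length trend removed PFKL had 0.28 (adjusted p = 0.19). PDK2 rose by 0.66, ENO2 by 0.48 and PGM1 by 0.47. PGM2 fell by 0.65 (adjusted p = 0.0031) and RPE by 0.51 (adjusted p = 0.0022), both of which held without any single library, and LDHB fell by 0.59, RPIA by 0.37 and GAPDH by 0.33. With every library scaled to the same total GAPDH had -0.20 (adjusted p = 0.15) and RPIA -0.24 (adjusted p = 0.14). With the length trend removed RPIA had -0.23 (adjusted p = 0.071). That fit newly called TPI1 at -0.35 (adjusted p = 0.026) and ENO1 at -0.34 (0.047).

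The other NODAL calls were less firm. Without replicate 2 of E7 the adjusted p was 0.058 for PFKL, 0.055 for PFKP, 0.22 for PFKFB3, 0.11 for PFKFB4, 0.10 for ENO2, 0.11 for LDHB, 0.061 for PDK2, 0.15 for GAPDH and 0.27 for RPIA. Without replicate 1 of E7+NODAL it was 0.083 for PFKL, 0.22 for PFKFB3, 0.14 for PFKFB4, 0.12 for ENO2, 0.093 for PDK2, 0.11 for PGM1, 0.10 for GAPDH and 0.20 for RPIA. Without replicate 2 of E7+NODAL it was 0.071 for PFKL, 0.053 for PFKFB3, 0.052 for ENO2, 0.094 for LDHB, 0.079 for PDK2, 0.23 for GAPDH and 0.12 for RPIA. Without replicate 1 of E7 it was 0.068 for PFKL, 0.082 for PDK2, 0.068 for PGM1 and 0.13 for GAPDH. GAPDH and RPIA were lost without most other libraries too. Fewer members were called without replicate 2 of E7 or either replicate of E7+NODAL, and the share of all genes called fell with them.

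With Activin A, PFKL rose by 0.43 (adjusted p = 0.018) and PDK2 by 0.60 (adjusted p = 0.04), while HK1 fell by 0.45 (adjusted p = 0.015), PGM1 by 0.38 (adjusted p = 0.047), RPE by 0.35 (adjusted p = 0.025) and SLC2A3 by 0.32 (adjusted p = 0.027). HK1 had 2395 and 2824 normalised reads with Activin A and 3831 and 3284 in E7. PGM1 was thus lower with Activin A (402 and 390 normalised reads) and higher with NODAL (784 and 648) than in E7 (484 and 545), although the difference between the ligands was not tested. With library weights only SLC16A1 was called of the 35 (2.35% of all genes), and with only the libraries of the contrast none was (0.574%). With the length trend removed PFKL had 0.37 (adjusted p = 0.12). That fit newly called HK2 at -0.35 (adjusted p = 0.019), PFKP at 0.30 (0.031) and LDHB at -0.39 (0.016). The calls of PFKL, PDK2, HK1, PGM1, RPE and SLC2A3 were also lost without single E7 libraries. Without replicate 1 of E7 the adjusted p was 0.12 for HK1, 0.11 for PFKL, 0.18 for PDK2, 0.066 for PGM1, 0.082 for RPE and 0.10 for SLC2A3. Without replicate 2 it was 0.064 for PFKL, 0.10 for PDK2, 0.31 for PGM1, 0.14 for RPE and 0.13 for SLC2A3. RPE was lost without replicate 1 of E7+ActivinA (0.055), and PDK2 and PGM1 also without most single libraries of other groups (0.053 to 0.074) and without replicate 2 of E7+ActivinA (0.16 and 0.070). Fewer members were called without either replicate of E7, E7+2DG, E7+TGFb+2DG, E7+TGFb or E7+NODAL+2DG, and more without replicate 1 of E7+ActivinA. The share of all genes called fell and rose with the count of members.

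Markers of other cell types also differed between the groups. The 4 mesendoderm markers summed to 192 and 219 normalised reads with TGFb, 1715 and 1575 with Activin A, 551 and 584 with NODAL, and 185 and 202 in E7, and with 2DG to 72.5 and 58.7, 1475 and 927, 152 and 118, and 68.3 and 55.5 in the same order of media. Of 8 fibroblast markers 4 were in the table (COL1A1, COL1A2, THY1 and PDGFRB), while the defining COL3A1, DCN, LUM and POSTN were not. The sum of these first 4 cannot show whether fibroblasts were present. The 4 summed to 3306 and 3125 normalised reads with 2DG and 4270 and 4276 without in the TGFb medium, 3905 and 2765 with and 4185 and 3884 without in the Activin A medium, 4098 and 3993 with and 5244 and 5006 without in the NODAL medium, and 3345 and 3237 with and 4260 and 4224 without in E7. They were lower with 2DG in the TGFb and NODAL media and E7, overlapped in the Activin A medium, and were highest with NODAL alone. Of 4 trophoblast markers 3 were in the table, summing to between 60.2 and 156 with 2DG and 57.2 and 122 without, and 2 of 5 endoderm markers summed to between 18.2 and 70.4. Of 4 neural markers 3 were in the table, and they summed to between 100 and 288 with 2DG and 72.2 and 134 without. Mitochondrial genes took 6.12 to 6.69% of reads in the 4 NODAL libraries and 6.64% in replicate 1 of E7+ActivinA, against 5.46 to 5.88% in the 11 others. The part of these markers and shares in the values of the 35 genes was not tested.

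Whether a ligand alters the response to 2DG was asked with an interaction term, the difference between the 2DG responses of that medium and of E7. No member was called for TGFb (0% of all genes) or for Activin A (0.0419%). At an unadjusted p under 0.05 there were 3 members (8.57%) beside 12.1% of all genes for TGFb, and 8 members (22.9%) beside 9.87% for Activin A. The adjusted count of members in both was 0 with edgeR and DESeq2 as well. Of all genes, 0% were called for TGFb by each, and for Activin A 0.0419% by edgeR and 0.263% by DESeq2. For NODAL 1 member was called, beside 1.87% of all genes, 0.987% higher and 0.885% lower. PFKP had 981 and 984 normalised reads with 2DG and 1102 and 1030 without in the NODAL medium, and 1064 and 1115 with 2DG and 792 and 745 without in E7, an interaction of -0.62 (SE 0.13, adjusted p = 0.043). LDHB (0.79, adjusted p = 0.053), PGM2 (0.66, 0.054) and PDK2 (-0.93, 0.054) were near the threshold. Without the Activin A libraries 19 members were called for NODAL, beside 28.7% of all genes, and 3 for TGFb, beside 14.7%. Leaving out either replicate of E7+ActivinA gave 15 for NODAL (23.3% of all genes) and 2 for TGFb (7.39 and 7.37%), and leaving out replicate 1 gave 6 for Activin A (12.8%). For NODAL more members were also called without either replicate of E7+ActivinA+2DG or replicate 1 of E7. The call was lost without any of the other libraries. The share of all genes called moved the same way in these fits.

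Isoform ratios per kb show which form of a step dominates, given here as values without a test. SLC2A1 over SLC2A3 averaged 0.27, 0.30, 0.27 and 0.29 with 2DG in the TGFb, Activin A, NODAL and E7 media, against 0.19, 0.17, 0.18 and 0.18 without it, and no library with 2DG fell to the range without. ENO2 over ENO1 averaged 0.042, 0.029, 0.044 and 0.043 with 2DG and 0.024, 0.019, 0.037 and 0.021 without, so ENO1 stayed the main enolase by far. ALDOC over ALDOA averaged 0.033, 0.036, 0.035 and 0.032 with 2DG and 0.054, 0.045, 0.047 and 0.051 without, with libraries that overlapped in the Activin A medium. LDHA over LDHB was 0.22, 0.28, 0.21 and 0.23 with 2DG and 0.28, 0.28, 0.31 and 0.24 without, apart in the TGFb and NODAL media and overlapping between libraries in the Activin A medium and E7. SLC16A3 over SLC16A1 was 0.0065 with TGFb, 0.0234 with Activin A, 0.0244 with NODAL and 0.0069 in E7, all without 2DG. HK2 over HK1 lay between 0.29 and 0.39 in all 16 libraries.

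**Figure D5:**
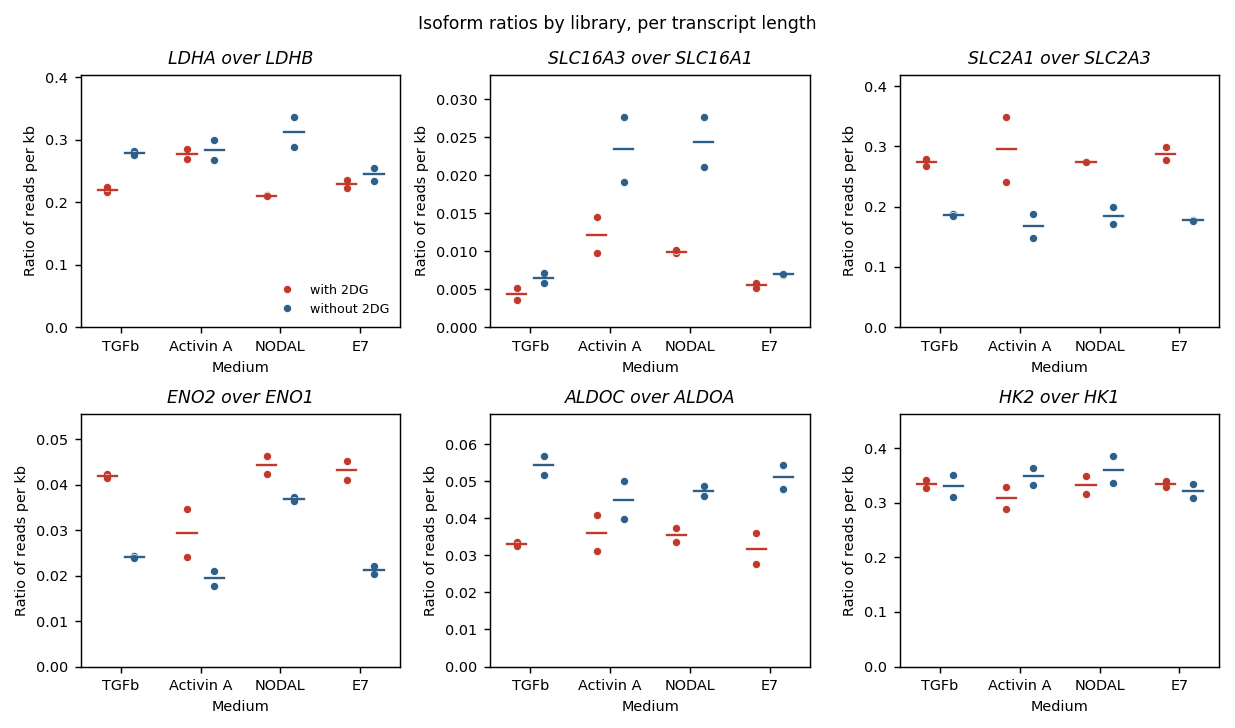
Ratio of normalised reads per kb between 2 isoforms of a step, by medium, with 2DG (red) and without it (blue), 1 point per library and a line at the mean. The ratio of SLC2A1 to SLC2A3 is higher with 2DG in every medium, that of SLC16A3 to SLC16A1 is highest with Activin A or NODAL without 2DG, and that of HK2 to HK1 is near 0.3 throughout.

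Genes around the pathway were counted from lists for the averaged response to 2DG, in which 38.6% of all genes were called. Of 24 regulators of glycolysis 9 rose and 3 fell, led by TXNIP, an arrestin-like brake on glucose transporters (4.46, adjusted p = 8.5e-11), and its relative ARRDC4 (3.69). TXNIP had 1610 and 1720 normalised reads with 2DG and 51.7 and 83.2 without in E7, so both TXNIP and the transporter gene SLC2A1 were higher with 2DG. The transcription factors MYC and MYCN rose by 0.25 and 0.24, and HIF1A fell by 0.12 (adjusted p = 0.044). Of 4 gluconeogenesis genes 1 rose and 1 fell, PCK2, the mitochondrial phosphoenolpyruvate carboxykinase, by 2.12 (adjusted p = 8.2e-08) and FBP1, the fructose bisphosphatase, by 0.25 (adjusted p = 0.019).

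Of 11 other glycolytic isoforms 1 rose, PKLR (1.41, adjusted p = 0.00039, with 34.2 and 37.0 normalised reads with 2DG and 4.79 and 7.10 without in E7), and 2 fell, BPGM and MINPP1. None of 9 other pentose phosphate genes rose and 4 fell, among them DERA, which cleaves deoxyribose phosphate (-0.44, adjusted p = 0.0012), and the ribose phosphate kinases PRPS1 and PRPS2 (-0.21 and -0.25). Of 11 genes for pyruvate entry into mitochondria 2 rose and 4 fell, with MPC2, a subunit of the pyruvate carrier, at -0.49 (adjusted p = 0.0011). Of 20 glycogen genes 2 rose and 2 fell, with the phosphorylase PYGL at -0.41 (adjusted p = 4.2e-05), of 11 other sugar and monocarboxylate transporters 2 rose and 4 fell, and of 9 glycerol and NADH shuttle genes 2 rose and 4 fell, with GPD1L at -0.57 (adjusted p = 0.00072).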

How the data were processed

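Cells were harvested in an RNA extraction reagent, polyadenylated RNA was selected, and paired-end reads were taken on an Illumina NextSeq, per the labels' protocols. The deposited values are a signal: read counts per gene that the authors scaled with a size factor for each library. DESeq2 1.26.0, featureCounts 1.5.3, STAR, Trimmomatic 0.36 and the build hg38 are listed in the submitters' processing notes. The role of each, the annotation and the strand setting are not given in the sources used here. Whole reads were recovered for 100% of values within a tolerance of 1e-06, and the median-of-ratios factors of these reads equalled the divisors. Each of the 17738 genes listed had 1 read or more in each of the 16 libraries, so the table omits genes that had none in some library. Counting error is largest for the low members SLC16A3 and PDK2.

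The test was limma 3.58.1 in R 4.3.3, with the prior variance following mean expression, on log2 of the value plus 1. It covered 16714 genes that reached 10 in 2 or more libraries. A single model with 8 group means gave 11 contrasts. Two-sided p-values were adjusted by Benjamini-Hochberg over all genes within a contrast, and genes were called under 0.05. Intervals are 95% and are not adjusted. The procedure was tested on simulated data in which all libraries had the same spread. That test cannot check the shared error for groups whose spread differs, as it does here.

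The alternatives were scaling to an equal total, TMM factors, library weights, the unfiltered table, genes averaging 50 or more, pseudocounts of 0.5 and 8, only the libraries of the contrast, no Activin A libraries, the replicate number as a block, removal of a trend on transcript length, the recovered reads tested in DESeq2 1.42.0 and in edgeR 4.0.16, and each library left out in turn. The mean of the 3 other media without the Activin A libraries was added after seeing the data. When 1 library of a group was left out, the other library was taken to have the spread of the remaining groups. Positions and lengths came from GENCODE 29, and promoters from RefSeq.

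The members, lists and tests were chosen with earlier results of these data known. All members are named, with TXNIP, MYC, MYCN and HIF1A, and the genes of the other lists were named from up to 4 called genes of largest change in E7 or in the mean of the 4 media.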

Additional observations from a re-analysis of the deposited data

Results flagged for a closer look

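The response of PFKP to 2DG differed between the NODAL medium and E7 by a test of the difference itself. The interaction was -0.62 on the log2 scale (SE 0.13, adjusted p = 0.043 in limma over all genes). The call was lost without 11 of the 16 libraries taken singly, which are both replicates of E7+TGFb+2DG, E7+TGFb, E7+2DG, E7+NODAL+2DG and E7+NODAL, and replicate 2 of E7 (adjusted p 0.077 to 0.21). Its value stayed between -0.67 and -0.57 in these fits.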

How the results depend on the processing

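The averaged response to 2DG gave 13 to 20 called members when 1 library was left out and 14 to 18 in the other settings, and 17, all 16 of the reported genes and PGLS, in the mean of the 3 other media without the Activin A libraries. Leave-one-out counts ranged from 6 to 19 for 2DG in E7, 1 to 11 in the TGFb medium, 0 to 18 in the Activin A medium and 0 to 8 in the NODAL medium. They were 0 to 7 for TGFb, 1 to 17 for Activin A, 4 to 17 for NODAL, and 0 to 2, 0 to 6 and 0 to 15 for the interactions with TGFb, Activin A and NODAL. In each contrast the highest of these leave-one-out counts came in the fits with the largest share of all genes called. GPI, at 0.24 for 2DG in E7, turned to -0.042 with the length trend removed.

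With library weights the count was 18 in the TGFb medium, 0 in the Activin A medium and 16 in the NODAL medium. It was 7 for TGFb, 1 for Activin A, and 2 and 15 for the TGFb and NODAL interactions. Of all genes, 32.1%, 0.174%, 27.0%, 19.5%, 2.35%, 9.02% and 25.1% were called, in that order. With only the libraries of the contrast the counts were 20, 0, 19, 5, 0, 2 and 13. The shares of all genes were then 37.9%, 0.0179%, 29.1%, 14.6%, 0.574%, 9.12% and 23.6%. Without the Activin A libraries the counts were 13 in the TGFb medium, 13 in the NODAL medium, 14 for TGFb, and 3 and 19 for the interactions. The shares were 24.6%, 20.3%, 26.2%, 14.7% and 28.7%. Contrasts that use the Activin A libraries have no value in that fit. With the length trend removed the counts were 3 in the Activin A medium (3.34% of all genes), 6 in the NODAL medium (10.3%) and 5 for the NODAL interaction (7.89%). That interaction gave 6 with DESeq2, 4 with a mean of at least 50, 2 with the same total and 0 with the replicate block, and DESeq2 gave 3 in the Activin A medium.

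The replicate numbers do not pair the samples, since only 3 of 28 pairs of groups had replicate differences correlated above 0.1 (from -0.39 to 0.24). With them as a block, 14 members were called for 2DG averaged over the media, 14 in E7 and 5 in the TGFb medium. For Activin A 6 were called, and for NODAL 13. Of all genes 37.2%, 27.8%, 8.33%, 8.92% and 19.9% were called, in that order. The PFKP interaction with NODAL had an adjusted p of 0.063. The causes of these changes were not tested. With 2 libraries a group, a change within 1 medium is limited by the spread between libraries.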
